A study of Mus musculus with 25 samples.

Results

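Macrophages that carry the lysosomal glycoprotein CD68 were sampled in lungs of SP-C I73T mice. Of 20175 probes, 60 were followed here that a rule chose as higher in CD68 segments next to the injury than in other CD68 segments. SP-C is the surfactant protein made by alveolar type 2 cells, which line the air sacs together with the flat type 1 cells. Resident macrophages of the air sacs clear surfactant and debris, and after epithelial injury blood monocytes enter the lung and mature into further macrophages, which take part both in clearing damaged tissue and in laying down matrix. Lung injury of this kind is patchy, so that remodelled tissue, nearly normal tissue and the border between them lie in a single section.

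All regions came from 2 male mice that carry the SP-C I73T mutant allele in its inducible form, in which tamoxifen removes a neomycin cassette through a Flp recombinase and raises mutant SP-C in alveolar type 2 cells. The healthy regions 1, 3 and 13 were from 1 control mouse given corn oil (day 0). The peri-injured regions 6, 9, 10 and 12 and the injured regions 4, 5, 7, 8 and 11 were from 1 mouse taken 14 days after tamoxifen, with an oral dose of 175 mg/kg in corn oil according to the labels. The study's methods describe another schedule, with repeated gavages at a lower dose each. Regions were picked on the histology, and from each of the 12 the GeoMx instrument collected a CD45+CD68+ segment (called CD68 here) and a CD45- segment (called non-immune here), 24 in all, read with the mouse whole transcriptome probe set. Each class is 1 mouse, and regions are repeated samples of it, so that every spread here is between places in 1 lung. A comparison with healthy regions cannot be told apart from a difference between the mice.

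The members were chosen from the measured values. Counts were pooled by compartment and class and written as v, the log2 of CPM plus 20, where CPM is a probe's counts per 1000000 counts of a segment. Of the 20175 probes, 1882 had at least 60 CD68 counts, and 1850 of these had no segment with more than 40% of them. For 1653 of those, v in healthy regions was less than 0.7 higher in CD68 than in non-immune segments, with no limit on how much lower. In non-immune segments, v of peri-injured regions was less than 0.4 above that of injured and of healthy regions for 997, which are called eligible here. The quantity m is the smaller of the differences in CD68 segments, peri-injured minus injured and peri-injured minus healthy. Of the eligible probes, 100 had an m of at least 0.6, and the 60 with the highest m are the members, numbered by m. Member 59 had an m of 0.76, member 60 of 0.76 and the next probe, which was not taken, of 0.75. Since these contrasts made the choice, they are described below, and counts of members that an edgeR fit calls in them say nothing beyond it.

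The files used here list probes by barcode identifier and do not pair them with gene symbols, so that the members' genes are not named and the CD68 label was not checked against marker genes. Members 1 and 2 are the probes RTS0071263 and RTS0062573, and the others are given by number. CD68 segments held between 21955 counts (peri-injured region 9) and 119493 counts (injured region 5), and non-immune segments between 80259 and 671249. Peri-injured regions 9 and 12 were the shallowest CD68 segments, and 1 count there was worth 45.5 and 30.3 CPM. The reaction without tissue held 1 count, none of it in a member.

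The members were of moderate abundance. Their CD68 counts summed over 12 segments had a median of 98 (60 to 1637), and 32 of the 60 had fewer than 100. The 997 eligible probes had a median of 75. In healthy CD68 segments 27 members had fewer than 10 counts in all. All 60 had a place among the 6000 probes with the highest mean share in CD68 segments, and 43 among the 6000 of the non-immune segments. Counts were above 0 in all 4 peri-injured CD68 segments for 58 members and in all 24 segments for 45.

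Added up, the members took the largest share of counts in the peri-injured CD68 segments. Regions 6 and 10 stood at 1.84% of all counts (95% exact binomial interval 1.75 to 1.93) and 2.05% (1.96 to 2.15). Regions 9 and 12 stood at 1.33% (1.18 to 1.49) and 1.52% (1.39 to 1.66). Healthy regions 1, 3 and 13 held 0.658%, 0.799% and 0.635%. Injured regions 4, 5, 7, 8 and 11 held 0.602%, 0.784%, 0.584%, 0.46% and 0.935%, with an interval of 0.871 to 1.00 for region 11, the highest of the segments that were not peri-injured. These intervals cover counting error only. The 4 peri-injured segments thus stood apart from the other 8, as the choice of members requires of the pooled counts. The class means were 1.69% ± 0.321 (SD, n = 4) in peri-injured, 0.673% ± 0.187 (n = 5) in injured and 0.697% ± 0.089 (n = 3) in healthy regions, a peri-injured mean 2.50 times the injured and 2.42 times the healthy one. In a bulk segment, fewer cells of a type and less RNA per cell cannot be told apart.

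**Figure D1:**
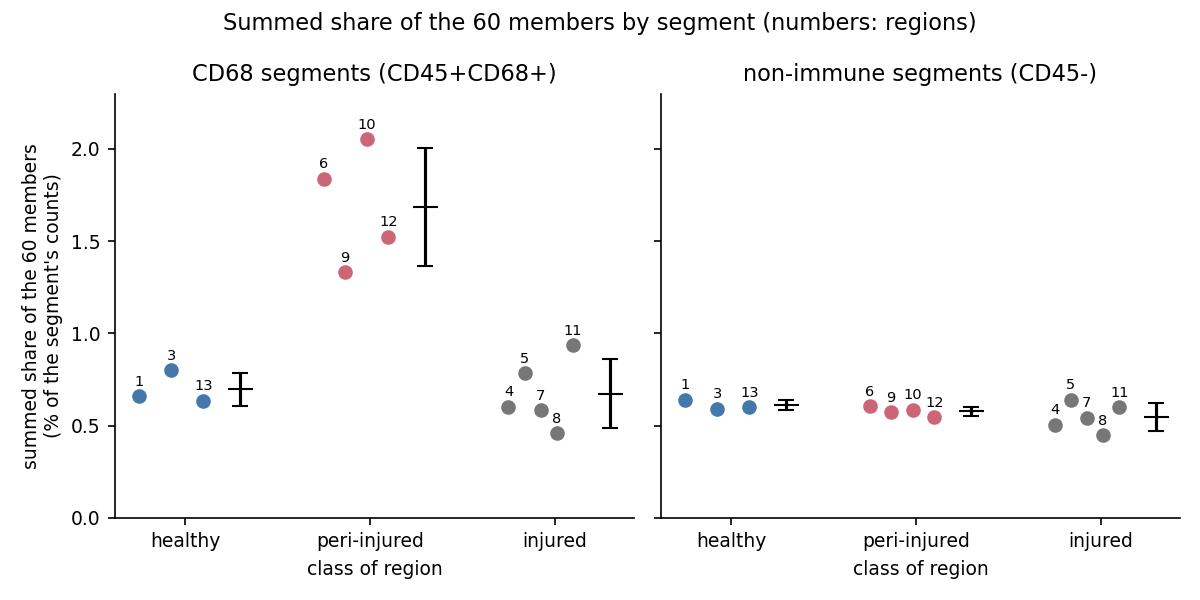
Share of the 60 members in each segment's counts (y axis, percent) by class of region (x axis), with CD68 segments on the left and non-immune segments on the right. Points are segments, numbered by region, and bars are class means with 1 SD. The 4 peri-injured CD68 segments lie between 1.33% and 2.05% and the other 8 between 0.46% and 0.935%, whereas all 12 non-immune segments lie between 0.447% and 0.640%.

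The non-immune segments of the same regions showed no such step. Their class means were 0.577% ± 0.025 (n = 4) in peri-injured, 0.546% ± 0.076 (n = 5) in injured and 0.610% ± 0.026 (n = 3) in healthy regions, and the rule had bounded any rise there. The eligible probes that were not chosen took 14.8% to 15.4% of the counts in the 4 peri-injured CD68 segments, 15.8% to 16.3% in the injured and 15.1% to 17.3% in the healthy ones.

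Depth, background and segment size differed between the classes. The share of counts from background, estimated from the least abundant probes, averaged 29.4% ± 3.51 in peri-injured, 39.2% ± 1.37 in injured and 33.0% ± 4.37 in healthy CD68 segments. With this background taken off the members and the totals, peri-injured CD68 segments held between 1.88% and 2.71%, injured between 0.566% and 1.34% and healthy between 0.778% and 1.11%, and the ratio of the peri-injured to the injured mean was 2.46. CD68 segments covered a mean area of 5793 in peri-injured, 13008 in injured and 6170 in healthy regions, in a unit the authors' worksheet does not name. Per 1000 units of area, the members had 92.2 to 219 counts in peri-injured, 35.6 to 60.9 in injured and 35.6 to 66.9 in healthy CD68 segments. The peri-injured segments did not overlap the others on either scale. The rule chose the members for high pooled values of these same segments, so that nothing is read from that. Counts of all probes per 1000 units were 6932 to 11663 in peri-injured, 5718 to 8237 in injured and 5610 to 8370 in healthy CD68 segments. The part of this density in the members' values was not tested.

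Member 57 alone made up a large part of the sum. With 1637 CD68 counts it was the most abundant member, and it is described because of its level, which was seen first. It was read at 3623, 2323, 4156 and 2726 CPM in peri-injured regions 6, 9, 10 and 12, at 743, 1423, 1106, 683 and 1723 CPM in injured regions 4, 5, 7, 8 and 11, and at 2040, 2172 and 2033 CPM in healthy regions 1, 3 and 13. It thus ran lowest in the injured CD68 segments, and peri-injured region 9 was close to healthy region 3. Its non-immune levels in the injured regions were 574, 1385, 868, 470.3 and 1334 CPM in the same order, so that regions 4 and 8 were lowest and 5 and 11 highest in both compartments. Without member 57, the others held a mean of 1.37% in peri-injured, 0.56% in injured and 0.489% in healthy CD68 segments.

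The first 6 members are those with the highest m, which did not always mean the widest separation of the segments. Member 1 was read at 171, 455, 302 and 151 CPM in peri-injured regions 6, 9, 10 and 12. Its injured CD68 segments (regions 4, 5, 7, 8 and 11) held 27.0, 50.2, 13.5, 55.7 and 35.6 CPM, and its healthy ones (regions 1, 3 and 13) held 22.9, 71.2 and 27.8 CPM. No peri-injured value overlapped another class. These are few molecules, with 58 counts in peri-injured, 16 in injured and 6 in healthy CD68 segments, and the ratio of the pooled CPM was 6.45 to injured (95% counting interval 3.66 to 12.0) and 5.51 to healthy (2.38 to 15.6). In the non-immune segments of peri-injured regions the same probe lay between 19.9 and 32.1 CPM, against 24.1 to 51.4 CPM in the injured ones.

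Member 2 had the widest gap of all members between the lowest peri-injured and the highest other CD68 segment, 1.05 in v. It was read at 342, 364, 313 and 242 CPM in peri-injured regions 6, 9, 10 and 12, at 27.0, 100.4, 54.0, 27.9 and 107 CPM in injured regions 4, 5, 7, 8 and 11, and at 22.9, 107 and 55.7 CPM in healthy regions 1, 3 and 13. The 4 peri-injured values were close to each other, 315 ± 53.1 CPM (SD, n = 4), which was more even than for member 1 with 269.9 ± 141 CPM. Its pooled ratio was 4.66 to injured (3.00 to 7.42) and 4.81 to healthy (2.41 to 10.9).

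Member 3 was lowest in healthy regions. Its levels were 588, 729, 469 and 394 CPM in the peri-injured, 149, 109, 94.4, 55.7 and 249.5 CPM in the injured and 45.8, 71.2 and 27.8 CPM in the healthy CD68 segments, in the order of regions used above. The ratio of 10.3 to healthy (4.84 to 26.0) was more than that of 4.00 to injured (2.90 to 5.59), and v of pooled injured segments was 1.09 above that of healthy ones, although injured region 8 (55.7 CPM) lay below healthy region 3 (71.2 CPM). Member 4 was read at 459.6, 364, 670.3 and 424 CPM in the peri-injured, 108, 142, 148, 69.7 and 214 CPM in the injured and 206, 89.0 and 55.7 CPM in the healthy CD68 segments. Its highest injured and healthy values were close, at 214 CPM in region 11 and 206 CPM in region 1.

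Members 5 and 6 show how unlike the peri-injured regions could be. Member 5 was read at 342, 45.5, 536 and 182 CPM in regions 6, 9, 10 and 12, where the value of region 9 is a single count. Its injured segments held 13.5, 151, 13.5, 0 and 261 CPM and its healthy ones 68.8, 35.6 and 55.7 CPM, so that its peri-injured and injured values overlapped. The count of 0 in region 8 allows up to 41.8 CPM. Member 6 was read at 246, 182, 335 and 212 CPM in the peri-injured, at 40.5, 66.9, 80.9, 27.9 and 166 CPM in the injured and at 68.8, 71.2 and 83.5 CPM in the healthy CD68 segments. It did not overlap, but injured region 11 came within 0.12 in v of peri-injured region 9.

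**Figure D2:**
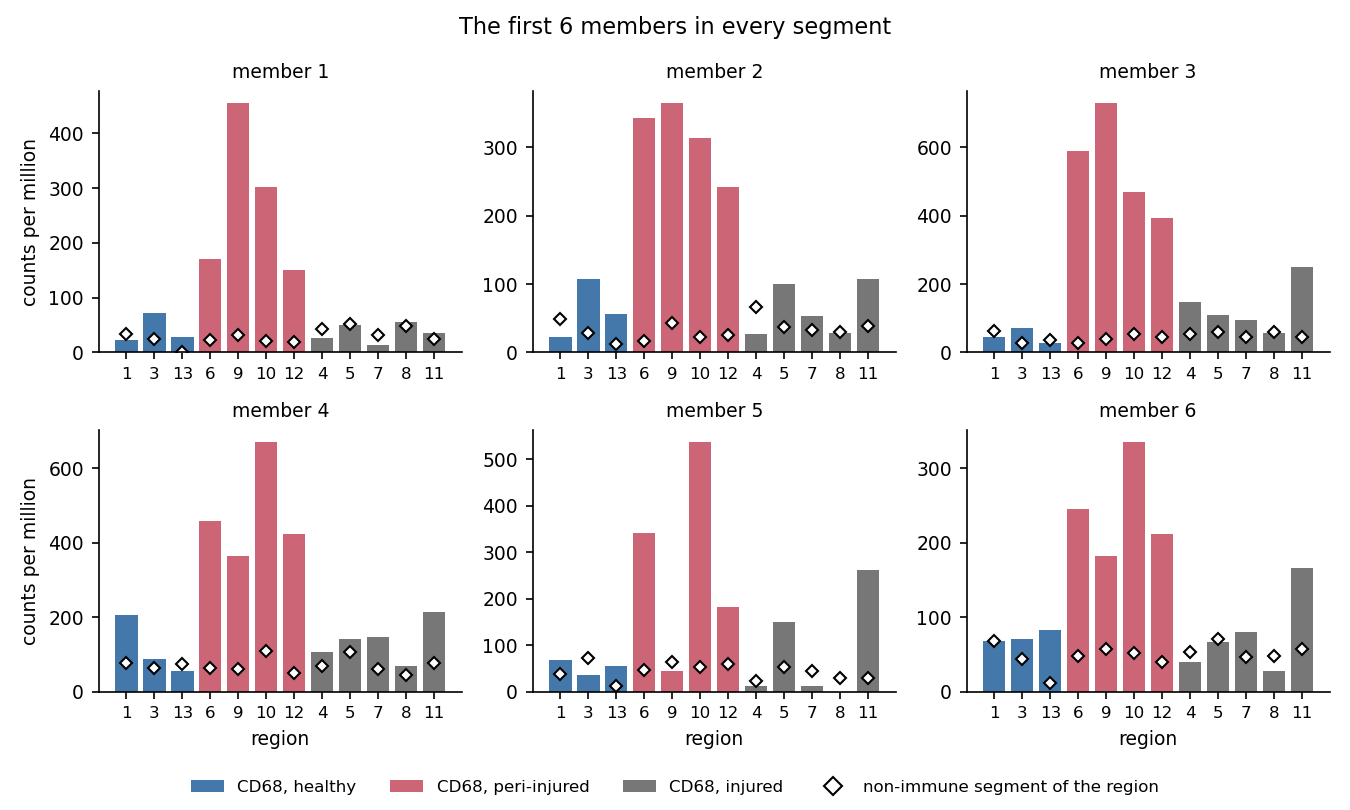
Level of members 1 to 6 (y axes, CPM, each from 0) in the 12 regions (x axes). Bars are CD68 segments coloured by class and white diamonds are the non-immune segments of the same regions. Peri-injured bars stand above all others except for member 5, whose region 9 bar (45.5 CPM) is among the low ones, and the diamonds stay at or below 110.2 CPM.

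After members 2 and 1, the widest gaps belonged to members 9 and 11. Member 9 was read at 502, 455, 648 and 575 CPM in the peri-injured CD68 segments, against 176, 251, 108, 125 and 226 CPM in the injured and 22.9, 125 and 55.7 CPM in the healthy ones. Member 11 was read at 342, 364, 279 and 273 CPM in the peri-injured, 149, 33.5, 108, 69.7 and 131 CPM in the injured and 45.8, 142 and 111 CPM in the healthy CD68 segments. For member 11 the non-immune segments held 136 to 179 CPM in peri-injured and 97.5 to 146 CPM in injured regions.

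The 4 members with the most uneven peri-injured counts had 56.7% to 67.3% of them in 1 region, 6 or 10, which held 39.3% and 37.6% of the depth. Member 27 had 67.3% in region 10, at 1128 CPM, and was read at 309.9, 228 and 454 CPM in regions 6, 9 and 12. Its injured CD68 segments (regions 4, 5, 7, 8 and 11) held 284, 226, 216, 279 and 285 CPM and its healthy ones (regions 1, 3 and 13) 298, 303 and 306 CPM, so that regions 6 and 9 did not stand out. Member 50 had 63.3% in region 10 and was read at 96.2, 319, 425 and 182 CPM over the 4 regions, against 176, 126, 67.4, 125 and 166 CPM in the injured and 22.9, 142 and 83.5 CPM in the healthy CD68 segments. Regions 9, 10 and 12 thus lay above all others for member 50, and region 6 did not. Member 21 had 57.6% in region 6, with 203, 0, 123 and 90.9 CPM, where the 0 of region 9 allows up to 136.6 CPM. Its injured segments held 40.5, 66.9, 67.4, 27.9 and 35.6 CPM and its healthy ones 91.7, 35.6 and 27.8 CPM, so that healthy region 1 was level with peri-injured region 12. Member 45 had 56.7% in region 6, with 182, 45.5, 112 and 60.6 CPM. Its injured segments held 54.0, 83.7, 40.5, 13.9 and 95.1 CPM and its healthy ones 68.8, 53.4 and 27.8 CPM, and injured regions 5 and 11 and healthy region 1 lay above peri-injured regions 9 and 12.

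At the threshold the classes were less distinct. Member 60 was read at 470.3, 319, 369 and 515 CPM in the peri-injured, 311, 218, 256, 125 and 309 CPM in the injured and 22.9, 160.2 and 83.5 CPM in the healthy CD68 segments. The next probe outside was read at 331, 182, 257 and 303 CPM in the peri-injured segments, with 108, 159, 108, 195 and 190.1 CPM in the injured and 183, 125 and 195 CPM in the healthy ones, so that region 9 was within the range of both.

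Over the whole list, the chosen difference was of about the same size against either class. The median difference in v was 1.16 for peri-injured minus injured and 1.19 for peri-injured minus healthy CD68 segments, beside 0.07 and 0.09 over the 997 eligible probes. For 28 members both differences were at least 1. The ratio of pooled CPM had a median of 2.57 to injured (1.74 to 6.45) and 2.60 to healthy (1.71 to 10.3). Its counting interval lay above 1 for all 60 members against injured and for 57 against healthy regions. The interval leaves out the spread between regions. The rule chose members for high ratios in the same pooled counts, so that nothing is read from these numbers.

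**Figure D3:**
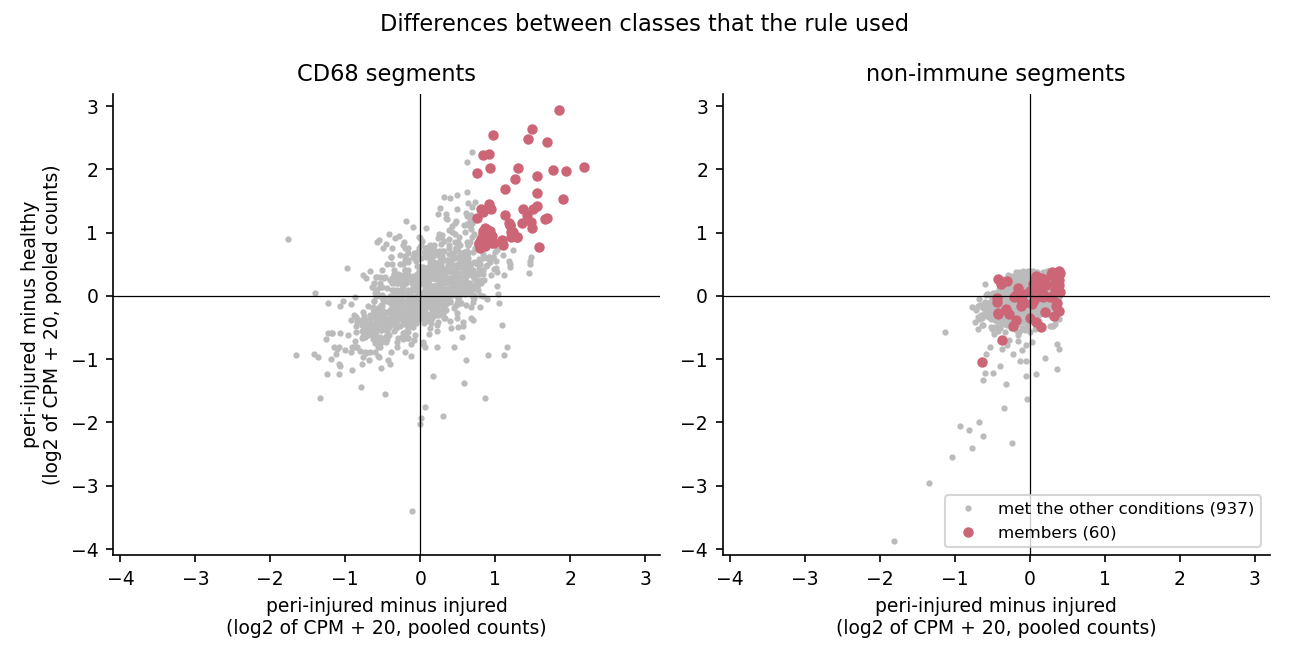
Differences in v (log2 of CPM plus 20, pooled counts) between peri-injured and injured regions (x axes) and between peri-injured and healthy regions (y axes), for CD68 segments on the left and non-immune segments on the right. Grey points are the 937 eligible probes that were not chosen and red points the 60 members. The corner of members on the left (at least 0.76 on both axes) and the upper bound of 0.4 on the right were set by the rule.

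Segment by segment, the separation was complete for some members and not for others. All 4 peri-injured CD68 segments lay above the 5 injured ones for 33 members, above the 3 healthy ones for 32 and above all 8 for 26. For the other 34 members at least 1 injured or healthy segment reached a peri-injured one. Of the 6000 kept CD68 probes, 6.48%, 6.23% and 2.95% were separated in these ways, but the rule picked members for high pooled values of the same segments, so that nothing is read from the difference.

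An edgeR quasi-likelihood fit of the CD68 segments gives no test of the choice, because the rule used the same contrasts in the same counts, and a member could hardly be called lower. As a description, 16 of the 60 members were called higher in peri-injured than in injured regions at an adjusted p under 0.05 (Benjamini-Hochberg over 6000 probes) and none lower, where 3.07% and 1.35% of all probes were. Against healthy CD68 segments 14 were called higher and none lower, where 1.23% and 0.283% of all probes were. Members 1, 2, 3, 4, 7 and 9 were in both counts. After thinning to the depth of region 9, which leaves 21955 counts in each CD68 segment, 0 members were called against injured and 2 against healthy regions.

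The rule set no limit on the contrast of injured with healthy CD68 segments. It used both classes, however, and this contrast is the difference between the 2 that it ranked on, so that the values are a description. The members had a median difference in v of 0.04, with 32 of 60 above 0, beside 0.03 over the eligible probes. No member passed edgeR's test, where 0.283% of all probes were called higher and 0.433% lower, and DESeq2 called 0. An unadjusted edgeR p under 0.05 was found for 8 of the 60 members and for 596 of the 6000 probes. The p-values run over regions of 1 mouse in each class and are too small for any claim on animals. Members 3, 9, 10, 29, 33, 37, 47 and 60 had v more than 1 higher in pooled injured than in pooled healthy CD68 segments (1.03 to 1.58), where 3.81% of all eligible probes had such a difference. They had 2 to 13 counts in the healthy CD68 segments in all. In the pooled values they were lowest in healthy, higher in injured and highest in peri-injured regions, while for members 3, 9 and 60 the single injured and healthy segments overlapped.

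Within the peri-injured class the members varied by region. Regions 6 and 10 gave 39.5% and 42.2% of the members' peri-injured counts, region 12 11.6% and region 9 6.71%, while they held 39.3%, 37.6%, 13.9% and 9.22% of the depth. Regions 6 and 10, which the study's text places nearer to the injury than 9 and 12, therefore dominate the pooled values from which the members were chosen. The position is not in the labels, and no comparison rests on it. For 46 members the highest peri-injured level was in region 6 or 10. Since these regions weigh most in the choice, nothing is read from that count.

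Measured segment by segment against the mean of pooled injured and healthy levels, the members had median differences in v of 1.25 and 1.31 in regions 6 and 10, and of 0.71 and 0.94 in regions 9 and 12. Region 10 had all 60 above that mean, region 6 had 59, region 12 had 58 and region 9 had 47. The rule chose members for pooled peri-injured values above both other classes, so that these counts only describe the choice. Region 9 was the lowest of the 4 for 32 members. It was also the shallowest, and the part of depth in this order was not tested.

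The injured CD68 segments were uneven too. Region 11 stood 0.36 and region 5 0.16 above the same mean, while regions 4, 7 and 8 stood at -0.05, -0.29 and -0.36. Region 5 was the deepest and largest CD68 segment, and its background share of 40.4% was the highest of the injured class (37.0% to 40.4%), with 38.9% in region 11. The part of these in the order of the regions was not tested.

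**Figure D4:**
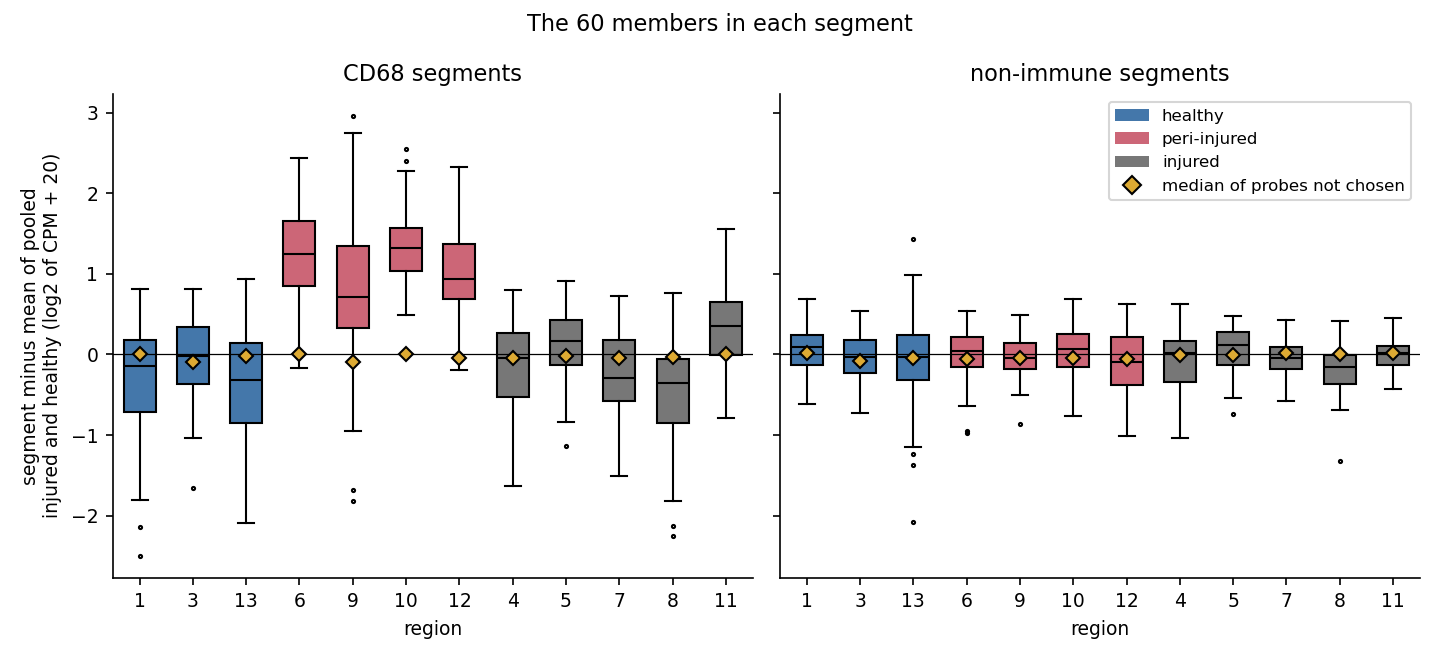
Difference in v (log2 of CPM plus 20) between each segment and the mean of pooled injured and healthy levels (y axis) for the 60 members, by region (x axis), with CD68 segments on the left and non-immune segments on the right. Boxes hold the quartiles with the median line, whiskers reach 1.5 times the interquartile range, dots are members beyond, and diamonds are medians of the 937 eligible probes not chosen. Boxes of CD68 regions 6, 9, 10 and 12 are raised (medians 0.71 to 1.31), and region 11 (0.36) is the highest of the others.

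The pattern was also read in regions whose counts were left out when probes were chosen. The rule was applied 60 times, each time without 1 peri-injured, 1 injured and 1 healthy region. The probes chosen from the remaining 9 regions were read in the 3 left out. Earlier results of these data were known when the rule was set, so that the regions left out are not new data. The lists held a median of 53.5 probes (34 to 60), of which a median of 27 were members. In the CD68 segments left out, the summed share was higher in the peri-injured region than in the injured one in 60 of 60 choices, with a median log2 ratio of 1.08 (0.31 to 1.90). It was higher than in the healthy region in 60 of 60, with a median of 0.78 (0.45 to 1.24). For all probes eligible in the same choices the medians were -0.03 and -0.12. Of the single probes chosen, a median of 69.1% were higher in the left-out peri-injured region than in both others, beside 38.6% of the eligible ones. The choices share regions and come from the same mice, so they are not independent and no p is given.

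The summed share of the chosen probes was higher in each peri-injured region when it was left out, but all of these are places in 1 lung. The median log2 ratio to the injured region was 1.27 for region 6, 0.95 for region 9, 1.41 for region 10 and 1.07 for region 12. To the healthy region it was 0.87, 0.59, 1.01 and 0.76. The ratio also turned on the injured region, with medians of 1.25, 1.24 and 1.53 where regions 4, 7 and 8 were left out, and of 0.69 and 0.55 where regions 5 and 11 were.

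In the non-immune segments left out, the chosen probes were close to level. Their median log2 ratio was 0.16 for peri-injured over injured (-0.23 to 0.64, above 0 in 41 of 60) and 0.03 for peri-injured over healthy. The eligible probes stood at -0.19 and -0.18 there. The chosen lists were thus 0.34 higher than the eligible probes in the median over injured, in the same direction in 59 of 60 choices, a smaller difference than the 1.14 of the CD68 segments.

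**Figure D5:**
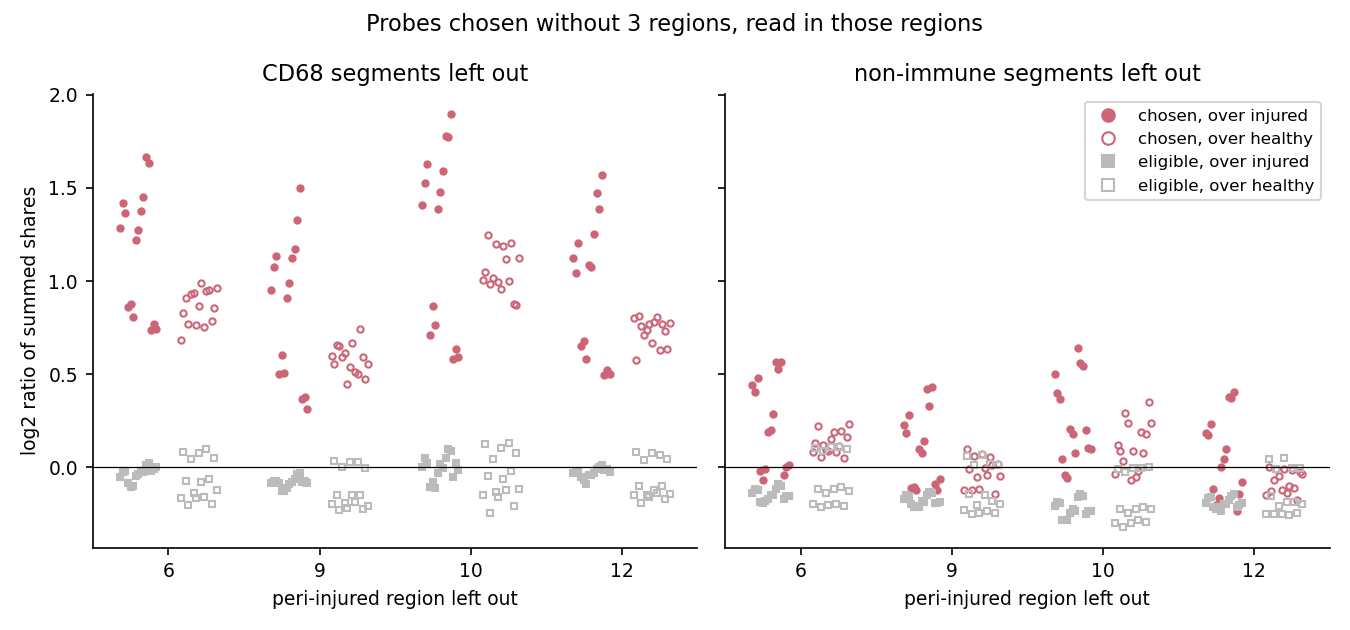
Log2 ratio of summed shares (y axis) in the 3 regions left out of the choice, by the peri-injured region left out (x axis), for CD68 segments on the left and non-immune segments on the right. Circles are probes chosen from the other regions and squares all eligible probes, filled for the ratio to the injured and open for the ratio to the healthy region, with 15 choices for each region. Every circle on the left is above 0 (0.31 to 1.90), while squares stay between -0.25 and 0.13.

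The 2 compartments were set against each other in v of pooled counts. CD68 segments exceeded non-immune segments by a median of 1.31 in peri-injured, 0.24 in injured and 0.11 in healthy regions, where the last was held under 0.7 by the rule. Over the eligible probes these medians were 0.13, 0.05 and 0.09. In a single edgeR fit over 24 segments, the difference of peri-injured from injured regions was called larger in CD68 than in non-immune segments for 11 members at an adjusted p under 0.05 and smaller for none, where 0.733% and 0.0833% of all probes were. The rule asked for a high CD68 difference and bounded the non-immune one, so that this direction is built into the choice and the count is no test of it.

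Calls among the members in non-immune segments were few. Of the 43 tested there, none was called higher and 5 (members 27, 44, 49, 50 and 55) were called lower by edgeR in peri-injured than in injured regions. Of all probes 10.6% were called higher and 15.8% lower, and of the eligible probes, for which the rule bounds a rise as it does for members, 24.3% were called lower. The count was 3 with TMM scaling, with DESeq2 or without injured region 4, 2 without peri-injured region 6, 1 after thinning and 11 of 60 with no filter. Against healthy regions 1 member, member 49, was called lower and none higher, where 1.83% and 2.68% of all probes were, and after thinning none was called. Member 49, the probe RTS0081166, had the lowest non-immune difference of the list, with v lower by 0.64 than in injured and by 1.04 than in healthy regions. In non-immune segments it was read at 64.5, 71.4, 77.5 and 74.5 CPM in peri-injured regions 6, 9, 10 and 12, at 128, 94.3, 125, 125 and 136 CPM in injured regions 4, 5, 7, 8 and 11, and at 201, 165 and 99.7 CPM in healthy regions 1, 3 and 13. In CD68 segments it was read at 374, 364, 235 and 363 CPM in the peri-injured, 81.0, 276, 121, 83.6 and 119 CPM in the injured and 183, 214 and 83.5 CPM in the healthy regions. The peri-injured level was thus the lowest of the 3 classes outside the CD68 cells without overlap and the highest within them, where injured region 5 overlapped peri-injured region 10.

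For non-immune segments, too, the rule set no limit on the contrast of injured with healthy regions. It bounded the peri-injured class against both, however, so that the values are a description. In this contrast 1 of 43 members was called higher by edgeR and none lower, where 0.767% of all probes were called higher and 1.62% lower. It was member 55, with a log2 change of 0.95 ± 0.23 (SE) and an adjusted p of 0.0268 by edgeR's quasi-likelihood test, and it was named after its values were seen. The call was lost with TMM scaling. The members' median log2 change was 0.14 beside 0.15 over all probes tested.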

How the data were processed

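Spatial RNA counts of 24 GeoMx segments and 1 reaction without tissue were analysed. The authors deposited raw counts per probe barcode, made in the GeoMx NGS Pipeline, whose version reads 2.3.4 in the counts and 2.3.5 in a metadata sheet, with duplicates removed by molecular identifier. The deposited counts were not normalized, and a probe missing from a file was read as 0. Areas came from the authors' deposited worksheet. mm10 is the build in the labels and no coordinate was used.

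The members and lists were chosen with earlier results of these data known. Counts were fitted with edgeR 4.0.16 (quasi-likelihood test) in R 4.3.3 on the 6000 probes with the highest mean share, the number in the study's methods, scaled to the 75th percentile (Q3) as there, in 1 fit for CD68, 1 for non-immune and 1 for all segments. The study's linear mixed model was not used. Alternatives were TMM, DESeq2 1.42.0, other filters, thinning with a fixed seed, leaving out each region, and a region block. Fits were also run on simulated counts with known changes. The simulation had no pairing of segments and no difference in background between classes, so that it is no check of the calls among members. Values in every CD68 segment are given for members 1 to 6, the 4 with the widest gap, the 4 with the most uneven peri-injured counts, and both sides of the threshold, and for members 49 and 57.

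For the background share, the 2018 probes of lowest mean level in the opposite compartment were averaged in a segment and multiplied up to all probes. Intervals of ratios and shares are exact, at 95%. Both segments of a region were cut from 1 spot, which pairs them. Their deviations from class means correlated at 0.0036 to 0.145 over 12 pairs (median 0.063), beside a median of -0.015 for other pairs. No 2 segments of a class agreed within sampling noise. Labels do not say that regions are separate animals, so p-values measure the spread between places in 1 lung.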

Additional observations from a re-analysis of the deposited data

Results flagged for a closer look

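In 5 of 64 groups of 4 or 5 segments, 1 segment stood far from the others, where chance gives about 1 in 20 groups. Injured CD68 region 5 held 119493 counts and the other 4 injured CD68 segments 71786 to 84152. Member 2 was at 67.2 CPM in non-immune injured region 4 and between 29.7 and 38.1 in the others. Member 49 was at 234.6 CPM in peri-injured CD68 region 10 (others 363 to 374), at 276.2 CPM in injured CD68 region 5 (others 81.0 to 121.4) and at 94.3 CPM in injured non-immune region 5 (others 125 to 136). For members 1 and 2 the log2 change from injured to peri-injured regions was larger in CD68 than in non-immune segments, by 3.34 and 2.83, a difference that the rule used.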

How the results depend on the processing

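Membership depended on the rule's settings: 17 members were among the 24 probes chosen with at least 120 CD68 counts, 29 among those with no segment over 25%, 37 with scaling by Q3, and 5 of the 10 chosen after thinning. Without 1 region, 32 to 52 remained, fewest without peri-injured region 10 (32) or 6 (35). The log2 ratio of summed shares was 1.01 to injured with division by Q3 (1.32 otherwise), 1.21 to 1.47 without 1 region, and 1.17 to 1.38 to healthy. In regions left out, thinning gave 0.53 to healthy (0.78 otherwise).

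The counts of calls, a description where the rule used the contrast, were less steady. Against injured CD68 segments thinning left 0 members called (16 otherwise), and 5 to 22 without 1 region, with 5 without peri-injured region 6, 6 without 10, 10 without injured region 7 and 8 without injured region 8. Against healthy ones DESeq2 called 9, thinning 2 and leaving out a region 6 to 17, with 6 without healthy region 1 or 13 and 8 without healthy region 3 or peri-injured region 6. Injured against healthy CD68 segments gave 2 calls with edgeR's filterByExpr and 0 to 1 without 1 region. The compartment difference from injured gave 0 calls after thinning and 3 to 13 without 1 region (3 without peri-injured region 6). In non-immune segments, injured against healthy gave 0 calls with TMM, no filter, filterByExpr or thinning, and 0 to 1 without 1 region. Thinning leaves fewer counts, and the other causes were not tested.

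With the region as a replicate block, the compartment difference from injured was called for 15 members (11 without). Chosen after seeing the data, leaving out the shallowest regions 9 and 12 together gave 24 members against injured and 19 against healthy CD68 segments, and the summed log2 ratios became 1.53 and 1.48. Without member 57 they were 1.29 and 1.48, and with background subtracted 1.30 and 1.32. Of 148 values recomputed whose data a setting altered, 116 stayed close (a count within 1.5 times, a log2 ratio within 1 SD between peri-injured regions) and 32 moved. Only a log2 ratio could be labelled as reversed, and none was. The rule used many of these contrasts and set the direction of the summed shares, so that nothing is read from the tally or from the kept direction. The median of all CD68 probes in peri-injured against injured segments was -0.17 with Q3 and -0.05 with TMM, and in injured against healthy 0.21 and 0.02.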
